A study of Mus musculus with 16 samples.

Results

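The central domain of 18S rRNA was taken as the read-start positions 671 to 1200 of the deposited 18S sequence, which are 530 of the 6878 rRNA positions measured. They were chosen by position alone. A reverse-transcription stop lies 1 nucleotide 3′ of the modified base, so these stops report on nucleotides 670 to 1199, and sites are named below by the nucleotide. Ψ-seq libraries were made from total RNA of lymph node CD4 T cells activated for 20 h on plates coated with anti-CD3 and anti-CD28. The cells came from female mice, 4 control animals (Rnmt fl/fl CD4cre -) and 4 Rnmt cKO animals (Rnmt fl/fl CD4cre +), whose age was not given in the sources used here. RNMT is the methyltransferase that methylates the cap guanosine of mRNA, and all 8 animals carried the floxed alleles. CD4-driven Cre deletes the floxed exon of Rnmt at the double positive stage of thymic development. The paper reports a gradual loss of RNMT protein during that development and holds that residual protein may remain. For every animal 1 aliquot of RNA was treated with CMC and another was left without it (mock), and the 16 resulting libraries are the data used here. The replicates are animals. The files hold read starts on rRNA, so neither the deletion nor the cell type was checked here against a marker.

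Pseudouridine is an isomer of uridine made after transcription. In rRNA it is placed mostly by dyskerin, guided by H/ACA snoRNAs that pair with the bases around the target. CMC is a carbodiimide that reacts with uridine, guanosine and pseudouridine, and the alkaline step that follows removes the adducts from all but pseudouridine, where the remaining adduct stops reverse transcriptase. The central domain of 18S rRNA folds into the platform of the small ribosomal subunit. The comparison between control and Rnmt cKO cells asked whether loss of RNMT altered this modification.

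Termination at a nucleotide is the read starts at its stop as a percentage of all starts from there back over 65 nucleotides, a window that stands in for coverage. Dividing the CMC termination of an animal by its own mock termination gives the PSU score. The site call, made for each genotype, needed 3% or more mean CMC termination, a mean score of 3 or more, and a score in at least 3 animals. By this rule 15 central nucleotides were called in either genotype (all rRNA positions, 1.02%), 14 in control, 15 in Rnmt cKO and 14 in both. The 670 positions of 18S before the domain held 7 sites and the 671 after it held 6, while the 4731 positions of 28S held 40. These densities were not tested against each other.

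The 15 sites lay in 8 stretches, whose sequences in a genomic copy are shown to give the called bases and those around them. They were read from the 18S copy annotated in GENCODE vM21 on GRCm38 chromosome 17, plus strand, where the central domain spans chr17:39847028-39847557. The annotation places an rRNA transcript (CT010467.1) on the opposite strand there and the lincRNA Gm42418 on the same strand. Letters are those of the DNA, 5′ to 3′, and capitals mark the called bases.
Nucleotides 683 and 688, chr17:39847030-39847055: aagctcgtagTtggaTcttgggagcg
Nucleotides 816, 817 and 824, chr17:39847163-39847191: tttgaaaaaaTTagagtgTtcaaagcagg
Nucleotides 865 and 868, chr17:39847212-39847235: cagctaggaaTaaTggaataggac
Nucleotide 968, chr17:39847315-39847335: gaggtgaaatTcttggaccgg
Nucleotide 1006, chr17:39847353-39847373: cgaaagcattTgccaagaatg
Nucleotides 1047, 1048 and 1058, chr17:39847394-39847425: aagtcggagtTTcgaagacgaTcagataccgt
Nucleotide 1083, chr17:39847430-39847450: gttccaaccaTaaacgatgcc
Nucleotides 1176 and 1179, chr17:39847523-39847546: ggggggagtaTggTtgcaaagctg
All 15 called nucleotides were uridines, although uridines made up 113 of the 530 nucleotides, or 21.3%. In the copy, the base before the site was adenosine at 7 sites, uridine at 5 and guanosine at 3. The sites were close together in places, with adjacent pairs at 816 and 817 and at 1047 and 1048, and spacings of 3 nucleotides between 865 and 868 and between 1176 and 1179.

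The base assignment rests on a placement of the copy, since the custom rRNA sequences used for alignment were not used here. Shifts of up to 30 nucleotides were compared by how much more CMC raised termination at uridines than at other bases, in 18S after the central domain. The best shift, of 5 nucleotides, gave a log2 difference of 0.38 there, against 0.11 at the next best, and inside the central domain the same shift gave 0.64 against 0.17. With the copy moved by 1 nucleotide either way, 5 of the 15 sites were uridines. The forward 18S qPCR primer of the study (22 nt, nucleotides 1057 to 1078) differed from the copy by C13T and G22A, with the primer base first and positions counted from its 5′ end, and the reverse primer (25 nt, 1186 to 1210) matched it. The differences fall at nucleotides 1069 and 1078, and 1078 lies in the stretch shown for nucleotide 1083. A single base of the genomic copy, also one next to a called site, can therefore differ from that of the rRNA sequenced.

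The libraries held 1130058 to 2165668 read starts, of which 48056 to 123257 fell in the central domain, with a start at every central position in every library. At the called stops the lowest count was 20 starts, at nucleotide 865 in the mock library of Rnmt cKO 3, and the lowest window coverage 3261. The central share of 18S starts in mock was 29.8% in control 1 against 24.7 to 25.3% in the other controls, and 21.5% in Rnmt cKO 3, the shallowest library, where Rnmt cKO 1, 2 and 4 had 24.3 to 25.4%. In CMC it was 24.8 to 26.6% in all animals. Some results are also given without both animals numbered 1, an alternative added once the data were known. These shares were not its basis, since the mock share of Rnmt cKO 1 was 25.4% and Rnmt cKO 3 was kept.

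Among the called sites CMC termination was highest at nucleotides 1047, 683 and 824. At 1047, which precedes another site, CMC termination was 12.2, 11.2, 10.2 and 11.6% in control 1 to 4 and 12.0, 10.8, 11.4 and 10.7% in Rnmt cKO 1 to 4. Mock termination there was 4.11, 1.61, 1.89 and 1.48% in control and 1.98, 1.44, 2.42 and 2.19% in Rnmt cKO, so every CMC library lay above every mock library and the mock library of control 1 stood apart. At 824, CMC termination was 11.8, 10.3, 9.98 and 10.6% in control and 11.8, 11.2, 10.4 and 9.62% in Rnmt cKO, and mock termination was at most 1.97% in control and 3.15% in Rnmt cKO. The genotypes overlapped at both sites.

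The weakest CMC stop among the called sites, nucleotide 865, had one of the highest PSU scores. Its CMC termination was 4.05, 3.63, 4.09 and 3.86% in control and 4.22, 3.41, 3.51 and 3.46% in Rnmt cKO. Its mock termination was 0.637, 0.652, 0.633 and 0.483% in control and 0.652, 0.411, 0.464 and 0.542% in Rnmt cKO, the lowest of the called sites. The PSU score was thus 6.59 ± 1.01 in control and 7.19 ± 0.923 in Rnmt cKO (both SD, n = 4), and the animals overlapped. Nucleotide 868, only 3 nucleotides downstream, had a stronger stop with CMC, of 5.93 to 6.77% over the 8 animals, and also without it, of 1.55 to 3.56%.

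Nucleotide 868 was the site closest to the threshold. Its PSU score was 1.90, 3.42, 2.97 and 2.72 in control and 1.91, 3.82, 3.91 and 3.26 in Rnmt cKO. The means of 2.75 and 3.22 fell on either side of the threshold of 3, and the genotypes overlapped, with the animal numbered 1 lowest in each. Just outside the call lay nucleotide 899, with PSU scores of 3.15, 2.87, 2.64 and 2.62 in control and 2.73, 3.07, 2.84 and 2.17 in Rnmt cKO, and CMC termination of 2.53 to 3.03%. Nucleotide 920 missed the call for its mock stop, which was 3.06 to 5.74% over the 8 animals, below a CMC termination of 8.07 to 10.5%.

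At 1176 and 1179, which lie 3 nucleotides apart, CMC termination was close, with means of 5.40 and 5.91% in control, but mock termination was 1.25% at 1176 and 0.922% at 1179. The PSU score was 3.94 to 5.00 in control and 3.16 to 4.96 in Rnmt cKO at 1176, and 5.54 to 7.35 and 5.16 to 7.93 at 1179, so all 8 animals scored higher at 1179. At the adjacent sites 1047 and 1048 the mean scores were 5.78 and 6.14 in control and 5.77 and 5.51 in Rnmt cKO, and the animals overlapped. At the adjacent sites 816 and 817 the control means were 5.07 ± 0.867 and 4.55 ± 0.956 (SD, n = 4), and Rnmt cKO 3 had the lowest score at both, 2.73 and 2.25. Of the 3 sites shown alone in their stretch, 1006 and 1083 scored 2.95 to 4.41 and 2.85 to 4.40 over the 8 animals, and 968 scored 4.02 to 8.95. Site 1048 was among the steadiest in control, at 6.14, 6.47, 6.03 and 5.91, and ran from 4.10 to 6.72 in Rnmt cKO. The median score over the 15 sites was 5.87, 4.84, 5.23 and 5.91 in control 1 to 4 and 6.04, 5.43, 3.91 and 4.88 in Rnmt cKO 1 to 4. It was lowest in Rnmt cKO 3, whose mock library was the shallowest, but a role of depth was not tested. Over the 55 other called rRNA sites Rnmt cKO 3 was not the lowest, with a median of 4.38 against 3.77 in Rnmt cKO 4 and 4.35 in control 2.

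**Figure D1:**
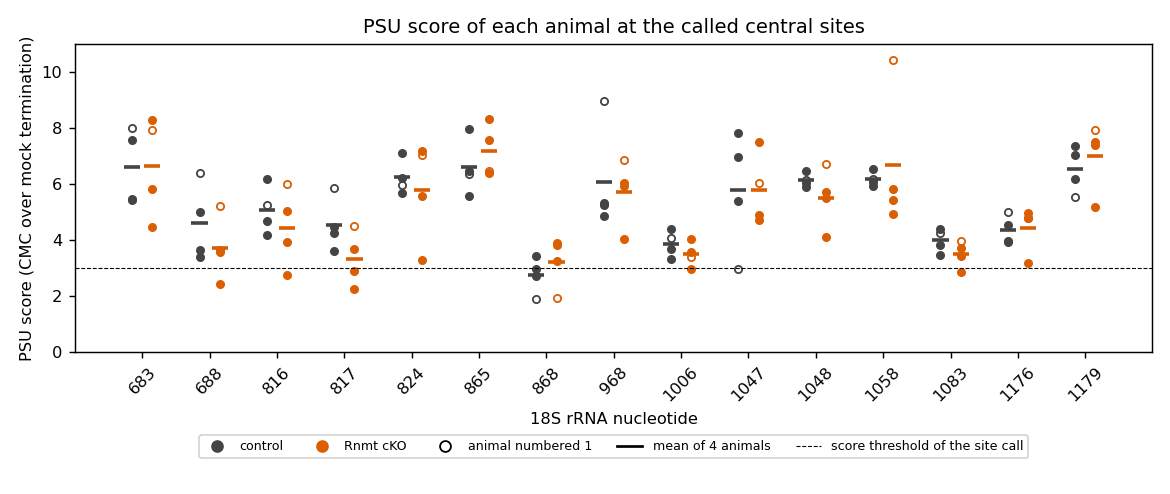
PSU score (CMC over mock termination, no unit) of each animal at the 15 called central nucleotides, control in grey and Rnmt cKO in orange, with open circles for the animals numbered 1, short lines for the mean of 4 animals and a dashed line at the score threshold of 3. Genotypes overlapped at each site, and the widest gaps came from single animals, such as 8.95 in control 1 at nucleotide 968 and 10.4 in Rnmt cKO 1 at nucleotide 1058.

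The effect of CMC was tested at each of 341 central nucleotides with a mean termination of at least 1%, with the animal as a block. Termination was higher in CMC at 46 (13.5%; all rRNA positions, 11.5%) and lower at 108 (31.7%; all rRNA positions, 10.2%; edgeR, adjusted p under 0.05). The median log2 effect was -0.18 in the central domain and -0.04 over all 4026 positions. The called sites, which were selected on the same libraries, had log2 effects of 1.52 to 2.75, and the plot of the effect along the domain shows them above the rest. Around the 5 sites with no other called site within 5 nucleotides (824, 968, 1006, 1058 and 1083), the median log2 ratio was 2.42 at the site, 0.06 at the nucleotide before it and 0.04 at the nucleotide after it.

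**Figure D2:**
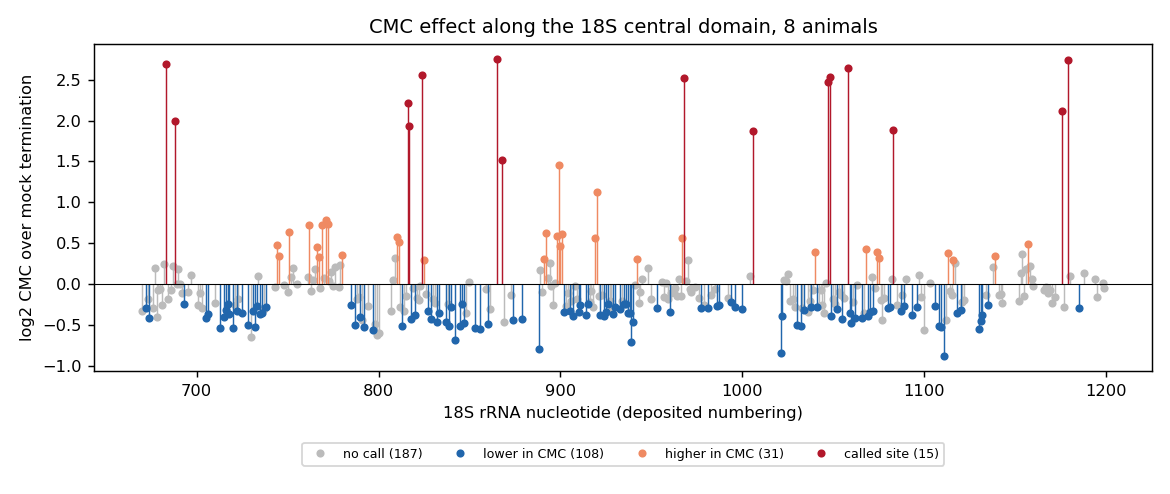
Log2 of CMC over mock termination (edgeR, 8 animals) at 341 tested nucleotides along the 18S central domain, with called sites in red, other nucleotides higher in CMC in orange, nucleotides lower in CMC in blue and the rest in grey. The 15 called sites reach 1.52 to 2.75, and 9 weaker uridines higher in CMC lie between nucleotides 744 and 780.

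The response to CMC followed the base. Of 91 tested uridines, 43 were higher in CMC and 2 were lower. Among the lower, nucleotide 1069 (log2 effect -0.39) is T in the copy but C in the forward qPCR primer of the study. Its base in the rRNA sequenced was not tested, so it may not be a uridine. Of 78 adenosines 2 were higher and 35 lower, of 80 cytidines none was higher and 46 were lower, and of 92 guanosines 1 was higher and 25 lower (edgeR). The 3 nucleotides other than uridine that were higher, named after their values were seen, were adenosines 810 and 811, just upstream of the pair at 816 and 817, with log2 effects of 0.57 and 0.51, and guanosine 767, with 0.33. The median log2 ratio of the uridines lay between 0.15 and 0.44 in the 8 animals, and that of the cytidines between -0.31 and -0.22. With TMM library sizes in place of window coverage 50 uridines were higher and none lower, 4 adenosines were higher and 16 lower, and 16 cytidines and 5 guanosines were lower.

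**Figure D3:**
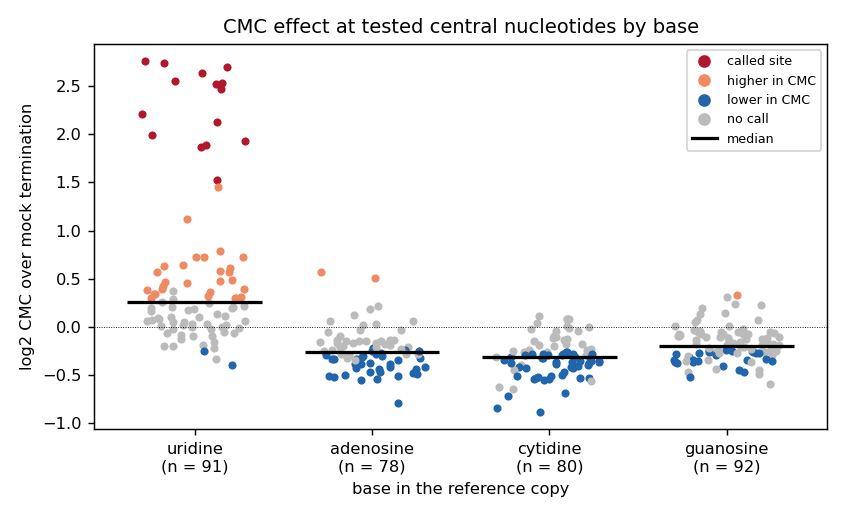
Log2 of CMC over mock termination (edgeR, 8 animals) at the tested central nucleotides, grouped by the base in the reference copy, with points coloured by call and a black line at the median. The called sites all sit among the uridines, whose median is 0.26, while the medians of the other bases lie between -0.31 and -0.19.

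Among the uridines that were not called, 28 of 76 tested were higher in CMC, most of them by little. Of these, 9 lay between nucleotides 744 and 780 and 8 between 891 and 920, and the rest were scattered singly or in groups of at most 3 from nucleotide 825 to 1157. The 2 larger stretches are shown, chosen after their values were seen, and whether the uridines cluster was not tested. Capitals mark the uridines higher in CMC.
Nucleotides 744 to 780, chr17:39847101-39847137: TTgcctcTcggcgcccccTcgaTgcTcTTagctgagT
Nucleotides 891 to 920, chr17:39847248-39847277: TTgttggTTTTcggaactgaggccatgaTT
In the first stretch 9 of the 10 tested uridines were higher, with log2 effects of 0.34 to 0.79, and no site was called. At nucleotide 771 CMC termination was 2.21, 2.37, 2.64 and 2.25% in control and 2.08, 2.22, 1.93 and 1.85% in Rnmt cKO, above mock in each animal (0.775 to 1.60%; log2 effect 0.79 ± 0.10 SE, edgeR, adjusted p = 0.000292). Nucleotides 772 and 762 had log2 effects of 0.73 each (adjusted p = 0.000742 and 0.000382). In the second stretch 8 of 12 tested uridines were higher, led by nucleotide 899 with a log2 effect of 1.45 ± 0.07 SE (adjusted p = 5.63e-08) and nucleotide 920 with 1.12 ± 0.10 SE (adjusted p = 1.1e-05). These 5 nucleotides were picked from those with CMC termination above mock in 8 of 8 animals, so that agreement was set by the choice.

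The largest decreases with CMC were at nucleotides 1111, 1021 and 888. At 1021 mock termination was 1.96, 3.22, 2.80 and 2.65% in control and 2.27, 3.21, 3.31 and 2.69% in Rnmt cKO, against CMC values of 1.30 to 1.93% over the 8 animals. The treatments did not overlap and the log2 effect was -0.84 ± 0.09 (SE; edgeR, adjusted p = 7.14e-05). At 1111 the log2 effect was -0.88 (adjusted p = 0.00311), and the mock library of control 1, at 6.88%, stood above the other mock libraries (1.82 to 3.61%). At 888 it was -0.79 (adjusted p = 0.00162). The effect at 1111 missed the threshold with TMM library sizes (log2 effect -0.53, adjusted p = 0.107).

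The lower class was also counted by the called sites upstream, whose read starts are part of the window coverage. Among tested nucleotides that were not called, 15 of 92 were lower in CMC where the window held no called site upstream, 17 of 54 with 1 site, 39 of 107 with 2, 21 of 44 with 3 and 14 of 25 with 4, that is from 16.3% to 56.0%. The bin with 5 sites held only 4 nucleotides. With TMM library sizes, which do not use the window, the shares were 8.70, 13.0, 11.2, 20.5 and 4.00% for 0 to 4 sites. In all, 37 central nucleotides were then lower in place of 108, while 54 in place of 46 were higher. The shares of all rRNA positions with TMM are not given here, so these 2 counts cannot be set against them. The median log2 effect with TMM was -0.09 in the central domain and -0.01 over all rRNA positions. The part of window coverage in the lower class was not tested.

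**Figure D4:**
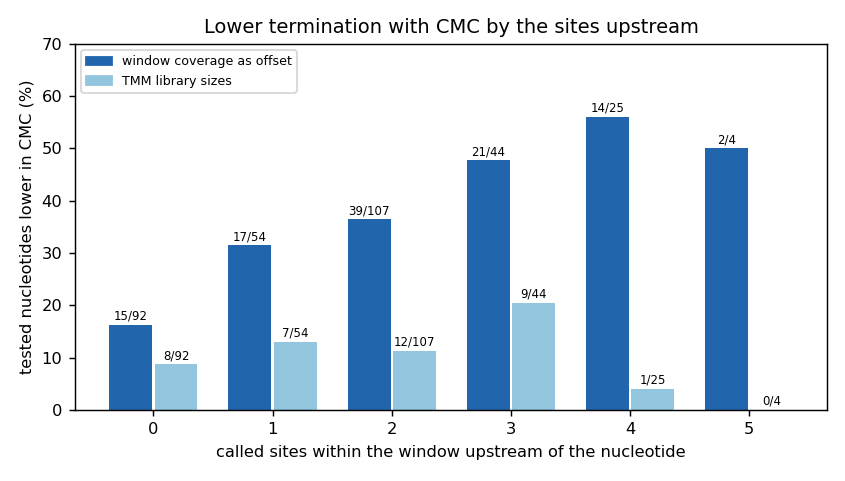
Percentage of tested central nucleotides, called sites left out, with lower termination in CMC than in mock (edgeR), by the number of called sites within the upstream window of 65 nucleotides. Dark bars use window coverage as offset and run from 16.3% at 0 sites to 56.0% at 4, and light bars use TMM library sizes and run from 8.70% at 0 sites to 20.5% at 3 and 4.00% at 4, with no test of either trend. The fractions give nucleotides lower over nucleotides tested.

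Within control alone 30 central nucleotides were higher in CMC (all rRNA positions, 4.87%) and 8 lower (all rRNA positions, 1.14%). Within Rnmt cKO alone 27 were higher (all rRNA positions, 5.76%) and 39 lower (all rRNA positions, 2.26%; edgeR). The control counts rested on single animals: without control 1 they were 49 higher and 105 lower, and without control 2, 3 or 4 they were 15 to 18 higher and at most 1 lower. Without Rnmt cKO 2, 3 or 4 the lower count there was 6, 15 and 6. The 15 called sites were higher in both genotypes, including nucleotide 868 in control (edgeR, log2 effect 1.43, adjusted p = 0.0063). The sites were selected on the same libraries for a high CMC over mock score, so this direction was largely set by the choice.

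No difference in PSU score between control and Rnmt cKO passed the threshold at the 15 sites (limma over 70 called rRNA sites, lowest central adjusted p = 0.599; all called sites, 0%), and none had an unadjusted p under 0.05. In 9 of them the Rnmt cKO mean was the lower, and in 6 the higher. The smallest p was at nucleotide 817, where the score was 5.87, 3.60, 4.46 and 4.26 in control and 4.50, 3.68, 2.25 and 2.90 in Rnmt cKO, a difference of -1.21 ± 0.69 (SE). The genotypes overlapped at all 15 sites. At 817 the CMC terminations were alike, with means of 6.88 ± 0.672% and 6.93 ± 0.334% in control and Rnmt cKO (SD, n = 4), and mock termination was 1.54 ± 0.170% and 2.22 ± 0.658%. At 688 the PSU difference was -0.88 ± 0.82 (SE) and at 1048 it was -0.63 ± 0.62 (SE), both with an adjusted p of 0.797 (limma).

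Several differences in mean PSU score rested on 1 animal. At 968 it was -0.37 with 8 animals, 0.59 when control 1 was left out and 0.20 when Rnmt cKO 3 was, and at 1058 it was 0.48 with 8 animals and -0.78 when Rnmt cKO 1 was left out. At 683 and 1047 it was within 0.01 of 0, and its sign depended on which animal was left out. The coefficient of variation of the score over 4 animals had a median of 20.2% (3.94 to 38.3%) over the 30 combinations of site and genotype, against a counting error of 8.88% (6.39 to 17.3%), and it exceeded the counting error in 27. Counting error covers the read starts only.

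CMC termination at the 15 sites did not differ between genotypes either (edgeR over 70 called rRNA sites, lowest central adjusted p = 0.46; all called sites, 1.43%), with none at an unadjusted p under 0.05, also with DESeq2 and with limma. The smallest p was at nucleotide 688, with CMC termination of 6.11, 4.25, 3.88 and 4.81% in control and 5.91, 5.45, 5.72 and 4.74% in Rnmt cKO, a log2 difference of 0.21. The groups overlapped, with control 1 the highest of the 8. At 683 and 968 the log2 differences were 0.12 and 0.10 (adjusted p = 0.736 for both). The median CMC termination over the 15 sites was 6.77, 6.03, 6.08 and 6.24% in control 1 to 4 and 6.95, 6.42, 6.19 and 5.90% in Rnmt cKO 1 to 4.

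The interaction of genotype with CMC passed the threshold at none of 341 central nucleotides (edgeR, lowest adjusted p = 0.768; all rRNA positions, 0%). At an unadjusted p under 0.05 there were 18 of 341, a share not above that of all rRNA positions (244 of 4026, edgeR). With DESeq2 there were 10 and with limma 19. The smallest p-values were at nucleotides 1141, 939 and 1157, with log2 interactions of -0.49, 0.64 and -0.51. At 1157, a uridine, CMC termination was 1.49, 1.58, 1.67 and 1.37% in control and 1.38, 1.26, 1.17 and 0.901% in Rnmt cKO, over mock values of 0.837 to 1.05% and 0.834 to 1.12%. In CMC the genotypes overlapped only between control 4 and Rnmt cKO 1, and in mock they overlapped throughout. Nucleotide 1157 was not called as a site in either genotype. These nucleotides were chosen for their small p-values, which favours separate ranges of the genotypes. How many of all tested nucleotides show no overlap was not counted. The ratio of CMC to mock termination was 0.998 to 1.20 in control and 0.705 to 0.838 in Rnmt cKO at 1141. At 939 it was 0.407 to 0.642 and 0.722 to 0.801, and at 1157 it was 1.54 to 1.88 and 1.04 to 1.28.

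Mock termination reports stops that do not need CMC, such as bulky modified bases, structure or RNA ends. The strongest central mock stop was at nucleotide 670, the first of the domain, with 27.7, 16.6, 17.1 and 17.4% in control and 21.6, 9.74, 8.68 and 11.9% in Rnmt cKO. The animal numbered 1 was highest in each genotype. The next were nucleotides 684 (mean of the 8 animals 8.08%), 691 (6.82%), 1022 (6.26%) and 1024 (6.25%). At 684 control 1 had 18.1% and the other controls 5.89 to 6.25%, whereas at 1024 the 8 libraries lay between 5.76 and 7.12%.

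With all 8 animals mock termination differed between genotypes at none of 349 central nucleotides (edgeR, lowest adjusted p = 0.653) and at 0% of all rRNA positions. At an unadjusted p under 0.05 there were 18 of 349, a share not above that of all rRNA positions (248 of 3985, edgeR). With DESeq2 there were 27 and with limma 18. The smallest p-values were at nucleotides 945, 1195 and 680, with log2 differences of 0.56, 0.41 and 0.81. At 945, a uridine, mock termination was 1.04, 1.40, 1.34 and 1.44% in control and 1.52, 1.95, 2.26 and 2.01% in Rnmt cKO. These ranges did not overlap, which the choice by small p favours, and the share of all positions without overlap was not counted. The same-numbered mock libraries of both genotypes deviated together, mainly those numbered 1, so the replicate number was also fitted as a block. Without the animals numbered 1 the correlations were 0.0281, -0.0701 and 0.173 for numbers 2, 3 and 4. Nothing says that the numbers pair control with Rnmt cKO animals. With this block 2 of 349 central nucleotides passed (edgeR, 0.573%), a share below that of all rRNA positions (1.05%). Without the block both had an adjusted p of 0.653 (edgeR). At 1033, an adenosine, mock termination was 12.5, 4.43, 5.17 and 5.24% in control and 7.79, 2.56, 3.14 and 3.33% in Rnmt cKO (log2 difference -0.71 ± 0.10 SE, adjusted p = 0.0275). At 1194, a uridine, it was 0.811, 1.74, 2.05 and 1.85% in control and 1.66, 2.63, 4.38 and 2.84% in Rnmt cKO (0.83 ± 0.13 SE, adjusted p = 0.0373). At both, each Rnmt cKO animal lay on the same side of its same-numbered control, which is what a test with this block selects. The genotypes overlapped through the animals numbered 1.

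With both animals numbered 1 left out, an alternative added once the data were known, 10 of 344 central nucleotides differed in mock termination (2.91%; all rRNA positions, 3.26%; edgeR), a share near that of all positions. With the replicate block in addition 10 also passed, 3 higher and 7 lower (all rRNA positions, 2.44%), but not all of the same nucleotides, since 909 then missed the threshold (adjusted p = 0.0722). The 6 lower in Rnmt cKO were 670, 792, 798, 799, 1032 and 1033, and the 4 higher were 723, 909, 945 and 1194. The largest difference was at the neighbours 798 and 799. At 799, a cytidine, mock termination was 1.58, 2.64 and 2.94% in control 2 to 4 and 0.492, 0.358 and 0.631% in Rnmt cKO 2 to 4, a log2 difference of -2.19 ± 0.27 (SE; edgeR, adjusted p = 0.003). The libraries numbered 1 had 4.92% in control and 4.90% in Rnmt cKO, above all others and alike, and with them the log2 difference was -0.87 (adjusted p = 0.679). At 798, a guanosine, the 3 controls had 1.96, 3.03 and 2.36% and the 3 Rnmt cKO animals 0.788, 0.865 and 1.05%. At 670 the log2 difference was -0.75 (adjusted p = 0.0114). None of the 10 was a called site. Mock libraries were also deeper in control (1850996 to 2165668 starts) than in Rnmt cKO (1130058 to 1827610), and the part of depth in these differences was not tested.

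**Figure D5:**
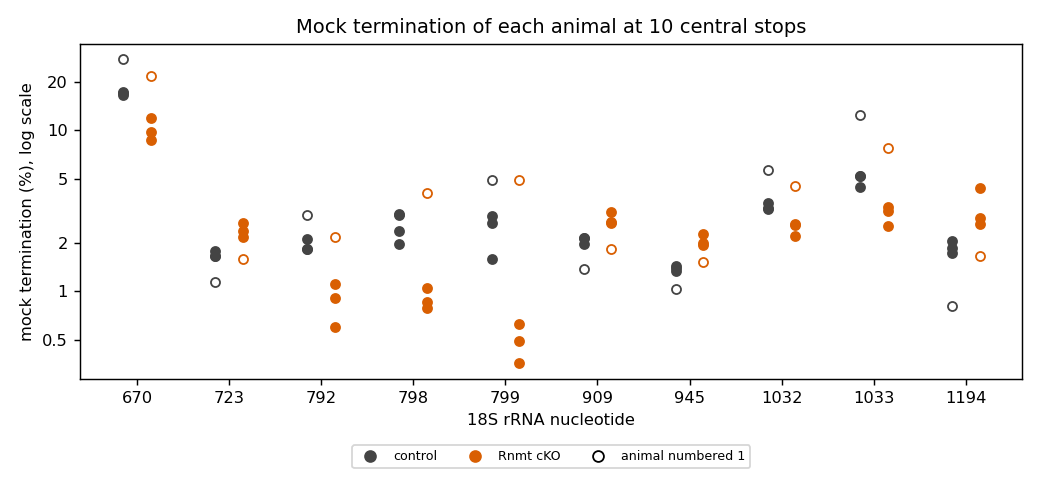
Mock termination (%, log scale) of each animal at the 10 central nucleotides that differed between genotypes with both animals numbered 1 left out, control in grey and Rnmt cKO in orange, with open circles for the animals numbered 1. At 799 the 3 remaining controls lie at 1.58 to 2.94% and the 3 remaining Rnmt cKO animals at 0.358 to 0.631%, while both open circles lie at 4.90 to 4.92%. Leaving out the animals numbered 1 was an alternative added once the data were known. The share that differed (2.91%) was near that of all rRNA positions (3.26%; edgeR). With all animals and no replicate block, none of the 10 passed the threshold (edgeR, lowest adjusted p = 0.653).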

How the data were processed

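Groups and replicate numbers came from the sample titles. In the methods, the authors describe extraction of the barcode, adapter trimming, alignment to custom rRNA sequences with bowtie2, removal of PCR duplicates and of secondary and low-quality alignments; the labels also list STAR and mm10. The deposited values are counts of read starts per position, not normalised. Nothing says that the same number marks a shared batch.

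Coverage was replaced by the starts in a window of 65 nucleotides (75 cycles less the barcode of 10), an upper bound, so termination is a lower bound. Starts were tested with edgeR 4.0.16 (quasi-likelihood, log window coverage as offset, mean termination of at least 1%, animal block for CMC and interaction), PSU scores with limma 3.58.1, all 2-sided over all rRNA positions or sites with Benjamini-Hochberg adjustment at 0.05. Position 1 of each RNA was left out. DESeq2 1.42.0, other scalings, windows, filters and thresholds, and leaving out each animal were alternatives. R 4.3.3 and Python 3.11.15 with matplotlib 3.10.9 were used, and the tests were tested on simulated data. Named nucleotides were every called site, the 5 strongest mock stops, the 5 uncalled nucleotides with the largest increase, the 3 largest decreases, and the 3 smallest p-values of each genotype comparison; others are marked. The members, lists and tests were chosen with earlier results of these data known.

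To see whether the numbers pair the animals, each animal was centred on its genotype and control was correlated with Rnmt cKO over 4026 positions. Mock termination (log2) gave r of 0.645 (number 1), 0.408 (number 2), 0.154 (number 3) and 0.373 (number 4). Each exceeded 0.1, so the numbers were taken to pair the mock libraries. Without the animals numbered 1 r was 0.0281, -0.0701 and 0.173, so the pairing rested mainly on number 1. For CMC termination all 4 were below 0, and for the PSU score the lowest was 0.0228. All 24 pairs of replicate libraries differed by more than sampling noise, the closest with a chi-square of 2.50 per degree of freedom. The mock library of control 1 was at 42.1 to 45.3 from the other control mock libraries, which were at 2.50 to 5.53 from each other. The mock library of Rnmt cKO 1 was at 13.0 to 14.9 from the other Rnmt cKO mock libraries, which were at 2.53 to 6.44 from each other.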

Additional observations from a re-analysis of the deposited data

Results flagged for a closer look

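In 94 groups of 4 animals (PSU score, CMC and mock termination at the 15 sites in each genotype, and the central share of 18S starts in each group), 1 animal stood apart by Dixon's criterion in 11, where chance gives about 4.7. Of the 11, 6 were mock terminations, which are the denominators of the PSU score.

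The animals numbered 1 stood apart in 6 groups. Control 1 had the mock termination of 4.11% at nucleotide 1047 (others up to 1.89%), the PSU score of 8.95 at nucleotide 968 (others up to 5.31) and the central share of 29.8% in mock (others up to 25.3%). Rnmt cKO 1 had the mock termination of 3.46% at nucleotide 868 (others up to 1.82%), the CMC termination of 4.22% at nucleotide 865 (others up to 3.51%) and the PSU score of 10.4 at nucleotide 1058 (others up to 5.84). Rnmt cKO 3, whose mock library was the shallowest, had the mock termination of 3.15% at nucleotide 824 (others up to 1.72%) and of 2.22% at nucleotide 1048 (others up to 1.47%), and the PSU score of 3.16 at nucleotide 1176 (others from 4.77). Control 4 had the mock termination of 1.01% at nucleotide 816 (others from 1.29%) and of 0.483% at nucleotide 865 (others from 0.633%). No cause was tested.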

How the results depend on the processing

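The number of called central sites was 12 to 15 under every alternative, and 14 or 15 with any animal left out. The CMC effect at the 15 sites kept its direction and its call in all alternatives run, which their selection on the same libraries favours. With TMM library sizes 91 central nucleotides differed between CMC and mock in place of 154, with 37 lower, and with median-ratio factors 59 were lower. With a filter of 2% on termination 71 differed (24 higher, 47 lower) among fewer nucleotides tested. Within control, 72 differed (34 lower) with a window of 30 nucleotides and 81 (42 lower) with no replicate block. Within Rnmt cKO, 111 differed (71 lower) with that window. With each animal left out in turn the control count was 15 to 154 (15 to 49 higher, 0 to 105 lower) and the Rnmt cKO count 27 to 51 (21 to 24 higher, 6 to 27 lower). Shares of all rRNA positions are not given here for these settings, so the counts cannot be set against them. The causes of these moves were not tested.

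With the replicate block, mock termination differed at 2 central nucleotides in place of 0, and the pairing it rests on is described under the processing. Without the animals numbered 1 it differed at 10, and with the block also at 10, of which nucleotide 909 was no longer one (adjusted p = 0.0722). The block changed no call at the 15 sites. The base at the sites was uridine at 5 of 15 with the copy shifted by 1 nucleotide either way.

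Small differences changed sign. The CMC termination difference at 968 was -0.016 with median-ratio factors, and the mock difference at 1024 was -0.019 with TMM and -0.013 with median-ratio factors. The PSU difference at 683 was -0.23, -0.29 and -0.37 with windows of 50, 40 and 30 nucleotides and -0.019 on the log2 scale, where that at 1047 was 0.062. Without the animals numbered 1 it was 0.20 at 968, -0.78 at 1058 and -0.18 at 1179. With each animal left out in turn it ranged from -0.54 to 0.73 at 683, -0.94 to 0.36 at 824, -0.78 to 0.59 at 968, -0.94 to 0.67 at 1047, -0.78 to 1.06 at 1058 and -0.12 to 0.47 at 1176, and the mock difference at 684 from -0.56 to 0.22. None of these passed the threshold. Low mock counts limit the precision of the PSU score, and read length and coverage were not measured here.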
